A study of Homo sapiens with 11 samples.

Results

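The genes described here are 35 genes of the NF-κB pathway and of the inflammatory factors around it, measured in PC-3, an established line from a human prostate tumour. They were chosen by name, as subunits of the NF-κB transcription factors and partner factors, inhibitors and feedback regulators, chemokines, cytokines, and effector genes, and every probe that the array files call by one of these names was taken. The array held 48 such probes of 41000 in all, and 30484 gene names. Of the 35 genes, 32 had a probe that was well above background on 6 or more of 11 arrays. They had 37 such probes, and the whole array had 27135. CCL2, CCL5 and CCL20 had none, so they entered no test and are described by their signals alone.

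The arrays were made from cells taken 24 h after transfection with reagent only (mock, 4 arrays), with dsEcad640, a synthetic duplex complementary to the E-cadherin promoter, or with the duplex of a single miRNA. miR-520c, dsEcad640, miR-372, miR-302a and miR-373 have the same seed and are treated as 1 group, the common-seed duplexes, with 6 arrays because miR-372 was measured on 2 of them, and miR-520f has 1 array. Mock sample 1 shared a slide (set 1) with dsEcad640, miR-302a and miR-372 sample 4, mock sample 8 shared one (set 2) with miR-520f and miR-373, and mock samples 9 and 11 shared one (set 3) with miR-372 sample 10 and miR-520c. The RNA of an array, 150 ng, was a mix from 4 separate transfections of this 1 cell line. Whether the mock arrays, or the 2 arrays of miR-372, came from separate mixes is not given in the sources used here. The p-values therefore measure the spread between arrays, which may be technical. Since the common-seed group takes 5 different duplexes as its replicates, this spread also holds differences between them. In these bulk samples a smaller number of expressing cells cannot be told apart from less RNA per cell.

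NF-κB is a family of dimeric transcription factors that inhibitor proteins of the IκB family hold in the cytoplasm. Signals from cytokine and pattern receptors activate kinases that mark these inhibitors for destruction, the dimers enter the nucleus, and they switch on chemokine, cytokine and adhesion genes together with genes for their own inhibitors. PC-3 cells are known for constitutive NF-κB activity and for secreting interleukin-6 and interleukin-8. A miRNA represses transcripts mainly through the pairing of its seed, the bases from position 2 to position 8, with their 3′ untranslated regions, and no transcript sequence was searched for such sites here.

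The guide strands are shown because the comparison of miR-520f with the other duplexes turns on their seeds, which stand in capitals. The sequences are those of RefSeq with the build GRCh38.p14, read 5′ to 3′.
miR-302a-3p: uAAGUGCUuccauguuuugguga
miR-372-3p: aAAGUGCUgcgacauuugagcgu
miR-373-3p: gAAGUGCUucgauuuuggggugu
miR-520c-3p: aAAGUGCUuccuuuuagagggu
miR-520f-3p: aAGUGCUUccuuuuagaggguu

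The first 4 have the seed AAGUGCU, and miR-520f has the seed AGUGCUU, which is shifted by 1 base. The guide strand of dsEcad640 is described as having the common seed, and its sequence is not shown here.

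Several of the genes also share a promoter sequence, which is shown because a signal through NF-κB reaches its target genes by such sites. The windows run from 10 bases before to 10 bases after a match to the κB consensus, in capitals, on the strand of the gene (RefSeq, GRCh38.p14).
CXCL1, chr4:73869304-73869333, plus strand: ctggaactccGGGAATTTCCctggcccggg
CXCL2, chr4:74099254-74099283, minus strand: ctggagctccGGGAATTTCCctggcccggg
CXCL3, chr4:74038749-74038778, minus strand: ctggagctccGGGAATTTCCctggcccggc
CXCL5, chr4:73998749-73998778, minus strand: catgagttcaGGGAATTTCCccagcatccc
CXCL6, chr4:73836578-73836607, plus strand: cctgagttcaGGGAATTTCCccagcatccc
IL6, chr7:22727117-22727146, plus strand: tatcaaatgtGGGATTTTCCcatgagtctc
NFKBIA, chr14:35404811-35404840, minus strand: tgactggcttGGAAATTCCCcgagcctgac
The promoters of CXCL1, CXCL2, CXCL3, CXCL5 and CXCL6 held GGGAATTTCC, with its first base at positions -91 to -78 from the start of the gene. The capitals shown for NFKBIA are this same site read on the opposite strand. The promoter table covered 28 of the 35 genes with 41 promoters of 300 bases, from 250 bases before to 50 after each start. A match to the κB consensus on either strand was found in 19 of these 41 promoters (46.3%), against 11.3% of all 35116, and one to GGGAATTTCC in 8 (19.5%) against 0.145%. GGGAATTTCC is a case of the consensus and was taken because it was the most frequent match in these promoters, so that its share here is fixed in part by that choice. The share of the consensus is likewise set in part by the choice of genes around NF-κB, so its excess over all promoters is no independent result. The IL8, RELA and PTGS2 promoters held no match to the consensus. The search took a single fixed pattern of letters. A κB site that departs from it, or lies outside these windows, would not be found, so no match does not mean no site. Genes with several starts have several windows, which can overlap, the printed CXC chemokine sites overlap further matches on the opposite strand, and a match describes the sequence only.

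Facts of the arrays that touch these values are few. Between 54.5% and 72.9% of probes were well above background on 10 arrays and 88.1% on miR-372 sample 4, where dim probes read high. Arrays of set 3 correlated with those of sets 1 and 2 at 0.954 to 0.973 over the kept probes, and sets 1 and 2 with each other at 0.982 to 0.996, in both cases without miR-372 sample 4. The epithelial markers present on the array (4 of 4: KRT8, KRT18, KRT19 and TACSTD1) were well above background on all 11 arrays. The log2 of their summed signals was 7.60 to 7.78 on the mock arrays and 8.01 to 8.36 on the common-seed arrays. KLK3, a luminal prostate marker that is low or absent in PC-3 cells by common description, was well above background on all 11 arrays too, at 7.13 and 6.97 on the mock arrays of sets 1 and 2 but at 3.30 and 4.16 on those of set 3. Of 6 leukocyte markers, CD3E and CD79A were well above background on every array, CD14 on 10, ITGAM on 9, CD2 on 5 and PTPRC, which encodes CD45, on 1. CD79A was at 3.30 and 3.04 on the mock arrays of sets 1 and 2 and at -0.83 and -0.93 on those of set 3. The sets were therefore compared within themselves or with the set as a block, and the part of these differences in the results was not tested.

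All values below are log2 signals from which the 75th percentile of the array was subtracted, and levels of different genes are not set against each other. A gene with several probes is represented by the kept probe of highest mean signal. The question of the first comparison was how these genes differ between the common-seed duplexes and mock. No array had a control duplex of an unrelated seed. An effect of the seed therefore cannot be told apart from one of transfecting any duplex. The tests are limma's moderated test with the set as a block, adjusted over all kept probes by Benjamini and Hochberg, with a threshold of 0.05. Of 27135 probes, 4.05% passed it for the common-seed duplexes against mock, 1.96% as higher and 2.10% as lower. Of the 32 genes, 2 passed, RELA and LIF, and both were lower. The median fitted change over the 32 genes was -0.10, against 0.03 over all probes, and 20 of the 32 lay below 0. A count of 2 of 32 on a background of 4.05% says nothing particular about the list.

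**Figure D1:**
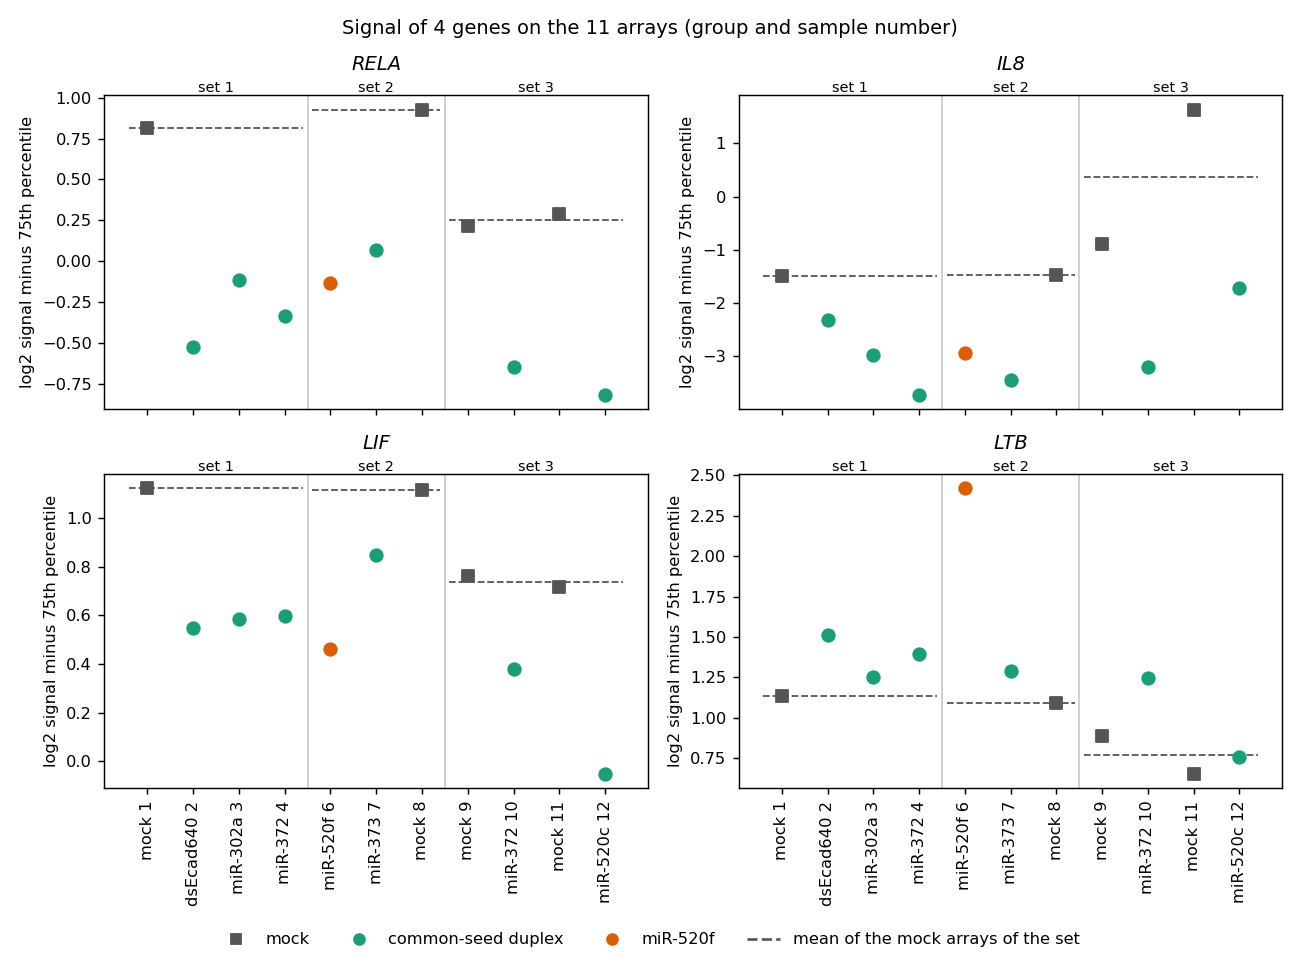
Log2 signal minus the 75th percentile of the array (vertical axis) of RELA, IL8, LIF and LTB on the 11 arrays, ordered by slide (set), with mock arrays as squares, common-seed duplexes as green circles and miR-520f in orange; each point is 1 array and each dashed line the mean of the mock arrays of that set. RELA, IL8 and LIF lie below the dashed line on all 7 duplex arrays, and LTB stands highest, at 2.42, under miR-520f.

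Among the 8 transcription factor genes, RELA was the one that fell. RELA encodes the subunit that carries the main transactivation domain of the canonical NF-κB dimer. Its probe lies at chr11:65178227-65178286 of hg18. The mock arrays gave 0.82 and 0.93 in sets 1 and 2 and 0.22 and 0.29 in set 3. The common-seed arrays gave a lowest value of -0.82, a median of -0.43 and a highest value of 0.07, and miR-520f gave -0.13. The highest of the 7 duplex arrays was thus below the lowest mock array, which held for 2.84% of all probes and for 2 of the 32 genes, RELA and IL8.

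Against the mock arrays of its set, RELA was lower by 1.34 on the log2 scale with dsEcad640, by 0.93 with miR-302a, and by 1.15 and 0.90 on the 2 arrays of miR-372. With miR-373 it was lower by 0.86, with miR-520c by 1.07 and with miR-520f by 1.06. It was therefore below mock in every set. The fitted change for the common-seed duplexes was -1.01 ± 0.11 (SE; adjusted p = 0.0057, limma), a level of 49.7% of mock with a 95% interval of 42.0% to 58.9%. For miR-520f it was -1.13 ± 0.20 with an adjusted p of 0.058 by limma, which did not pass. The difference between miR-520f and the common-seed duplexes was -0.12 ± 0.20 (adjusted p = 0.99, limma), and its ratio of 91.7% had an interval of 66.4% to 127%. The call for the common-seed duplexes was lost without mock sample 1 (-0.94, adjusted p = 0.064 by limma), without set 3 (-1.03, adjusted p = 0.198 by limma) and without the set term (-0.96, adjusted p = 0.066 by limma).

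The other 7 transcription factor genes did not pass the test. RELB, the activating partner of the noncanonical pathway, was below the mock arrays of its set on 5 of the 7 duplex arrays, and its fitted change under the common-seed duplexes was -0.39 ± 0.25. REL, NFKB1 and NFKB2, the remaining subunits, had fitted changes of 0.22, 0.05 and 0.15. BCL3, an IκB-like coactivator, was above the mock arrays of its set on all 6 common-seed arrays, by 0.03 to 0.98, as were 15.8% of all probes, and its fitted change of 0.46 ± 0.17 had an adjusted p of 0.17 (limma). CEBPB and CEBPD, factors that act with NF-κB on acute-phase and cytokine promoters, had fitted changes of -0.15 and 0.02. The fitted changes over the 8 genes ran from -1.01 to 0.46.

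None of the 8 inhibitor and feedback genes passed the test in any of the 3 contrasts. NFKBIA, which encodes the inhibitor IκBα, was lower on 5 of the 7 duplex arrays and had a fitted change of -0.32 ± 0.25, and NFKBIE, which encodes IκBε, one of 0.22 ± 0.21. IKBKE, an IκB kinase-related kinase, was higher than mock on all 6 common-seed arrays, by 0.09 to 0.89, with a fitted change of 0.42 ± 0.14 and an adjusted p of 0.13 (limma). TNFAIP3 and TNIP1, a ubiquitin-editing enzyme and its partner that end the signal, had 0.17 and 0.12. TNFAIP2 (a protein induced by tumour necrosis factor), TRAF1 (a receptor adaptor) and BIRC3 (a ubiquitin ligase of the inhibitor of apoptosis family) had -0.04, -0.16 and -0.35. The range over these 8 genes was -0.35 to 0.42.

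Among the 9 chemokine genes, 6 could be tested and none passed, and IL8 had the largest fitted change of the 32 genes. IL8 (current symbol CXCL8) encodes interleukin-8, the chemokine that draws neutrophils. Its probe lies at chr4:74828129-74828188 of hg18, and it was well above background on all 11 arrays. The files give the name IL8 to a second probe at chr17:39682083-39682142, on another chromosome than the gene, which was well above background on 5 arrays and was not used. The mock arrays gave -1.49 and -1.47 in sets 1 and 2, and -0.89 and 1.63 in set 3. The common-seed arrays ran from -3.73 to -1.72 with a median of -3.09, and miR-520f gave -2.94. All 7 duplex arrays thus lay below all 4 mock arrays, while the mock arrays of set 3 themselves differed by 2.52.

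IL8 was lower than the mock arrays of its set by 0.82 with dsEcad640, 1.48 with miR-302a, 1.97 with miR-373 and 1.47 with miR-520f. With miR-372 it was lower by 2.24 on sample 4 and by 3.57 on sample 10, and with miR-520c by 2.10. The set 3 values depend on the mock array: against mock sample 9 alone, miR-372 sample 10 differed by -2.32 and miR-520c by -0.84, and against mock sample 11 alone by -4.83 and -3.35. The fitted change was -2.20 ± 0.58 with an adjusted p of 0.077 (limma), a level of 21.7% of mock with a 95% interval of 8.59% to 55.0%, and it did not pass. It passed in 2 of 21 alternative settings. These were a filter on probes well above background on all 11 arrays (adjusted p = 0.037, limma) and set 3 split in 2 blocks by label order. The split was added after the data were seen. Over the 21 settings the fitted change ran from -2.55 to -1.63, with adjusted p-values from 0.023 to 0.275 by limma. Without mock sample 11 it was -1.65. Under miR-520f the fitted change was -1.58 ± 1.11 (adjusted p = 0.66, limma), and the difference between miR-520f and the common-seed duplexes was 0.62 ± 1.11.

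The other 5 chemokine genes measured, CXCL1, CXCL2, CXCL3, CXCL5 and CXCL6, encode ligands of the same receptor family as IL8. Their fitted changes under the common-seed duplexes were -0.18, -0.86, -0.43, -0.11 and 0.08, and by these probes none of the 5 was on the same side of mock on all 6 common-seed arrays. A second kept probe of CXCL2 was below mock on all 6, by 0.05 to 1.41, with a fitted change of -0.77, and one of CXCL3 had a fitted change of -0.94. On miR-372 sample 10, all 6 measured chemokines were lower than the set 3 mock mean, and 5 of them by 0.5 or more, as were 6.26% of all probes. That mean holds mock sample 11, and against mock sample 9 alone 3 of the 6 were lower by 0.5 or more, while CXCL1 differed by 0.04, CXCL5 by -0.18 and CXCL6 by 0.17. CXCL1, CXCL2 and CXCL3 are closely related in sequence, so a probe of one may take up transcripts of another, and these values are uncertain to that extent.

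Among the 6 cytokine genes, LIF fell under the common-seed duplexes. LIF encodes leukemia inhibitory factor, a cytokine of the interleukin-6 family. Its probe lies at chr22:28966713-28966772 of hg18. The mock arrays gave 1.12, 1.11, 0.76 and 0.72 on samples 1, 8, 9 and 11. The common-seed arrays ran from -0.05 to 0.85 with a median of 0.57, and miR-520f gave 0.46. The groups overlap across sets, and within each set every duplex array was below mock, by 0.27 (miR-373) to 0.79 (miR-520c). All 6 common-seed arrays were below the mock arrays of their set for 3 of the 32 genes (RELA, IL8 and LIF) and for 11.9% of all probes, and all 7 duplex arrays for these 3 genes and 9.94% of all probes.

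The fitted change of LIF was -0.50 ± 0.11 (SE; adjusted p = 0.045, limma), a level of 70.9% of mock with a 95% interval of 59.8% to 83.9%. Under miR-520f it was -0.77 ± 0.20 (adjusted p = 0.15, limma). The call of LIF was lost in 13 of 21 alternative settings, with values from -0.56 to -0.41 and adjusted p-values from 0.022 to 0.325 by limma over all of them, and it was lost without any 1 of 9 of the 10 mock and common-seed arrays, the exception being miR-372 sample 4. A second, dimmer probe of LIF had a fitted change of -0.14.

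LTB, which encodes lymphotoxin beta, a membrane-bound ligand of the tumour necrosis factor family and of the noncanonical pathway, rose under miR-520f. Its probe lies at chr6:31656448-31656507 of hg18. The mock arrays gave 1.14, 1.09, 0.89 and 0.66 on samples 1, 8, 9 and 11. The common-seed arrays ran from 0.76 to 1.51 with a median of 1.27, and miR-520f gave 2.42. The miR-520f array stood above all 10 others. The fitted change was 1.35 ± 0.23 (SE; adjusted p = 0.048, limma), a 2.54-fold level with a 95% interval of 177% to 365% of mock, and it rests on 1 array that is assumed to vary like the others.

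For miR-520f against mock 0.731% of all probes passed, 0.347% as higher and 0.384% as lower, and of the 32 genes LTB alone. The numbers behind these shares were 94 and 104 probes, and with quantile normalization they were 169 and 285. The common-seed duplexes had a fitted change of LTB of 0.23 ± 0.12. The difference between miR-520f and the common-seed duplexes was 1.12 ± 0.23, with an unadjusted p of 0.0011 and an adjusted p of 0.14 (limma), so that it did not pass. None of the 32 genes passed for that difference, which 0.0702% of all probes did, 0.0443% as higher and 0.0258% as lower. These were 12 and 7 probes, against 58 and 111 with quantile normalization and 18 and 31 with the authors' normalized values, so that the side with more calls turned. An unadjusted p under 0.05 was seen for 1 of the 32 genes, LTB, and for 7.38% of all probes. The call against mock was lost in 12 of 20 alternative settings, all with a value between 1.30 and 1.48, with adjusted p-values by limma from 0.023 to 0.223. With 1 array left out it was kept without miR-372 sample 4 or miR-520c and lost without any of the other mock and common-seed arrays.

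The other cytokine genes did not pass. IL6, which encodes interleukin-6, had a fitted change of -0.91 ± 0.58 under the common-seed duplexes and was lower by 1.60 with miR-373 and by 2.23 on miR-372 sample 10, but higher by 0.86 with dsEcad640. TNF, which encodes tumour necrosis factor, had -0.01, with mock sample 1 and miR-373 not well above background. CSF2, which encodes the growth factor of granulocytes and macrophages, was at -2.77, -2.54, -3.17 and -0.82 on mock samples 1, 8, 9 and 11, between -3.11 and -1.32 with a median of -2.67 on the common-seed arrays, and at -2.73 with miR-520f. Mock sample 11 was the highest of the 11 arrays, the groups overlap, and the fitted change under the common-seed duplexes was -0.09 ± 0.52.

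CSF1, the macrophage growth factor, was at -4.57, -4.54, -5.73 and -4.98 on the mock arrays in the same order and between -5.17 and -2.78 with a median of -4.78 on the common-seed arrays, which overlap with mock. It was not well above background on the miR-520f array, where it read -5.88, and the lowest signal well above background on that array, -3.94, is above the mean of the mock arrays, -4.95, so no fold is given. TNF on this array had a like limit. CSF1 was not well above background on the miR-373 array either. On miR-372 sample 4, where dim probes read high, CSF1 differed from mock by 1.79, and by 0.19 in the authors' normalized values. TNF was well above background on that array and not on mock sample 1, the mock array of its set, so no difference is given.

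The 4 effector genes did not pass either. PTGS2 encodes cyclooxygenase-2, the inducible enzyme of prostaglandin synthesis. The mock arrays gave -5.15 and -4.98 in sets 1 and 2, and -4.12 and -1.44 in set 3. The common-seed arrays ran from -6.54 to -2.91 with a median of -4.95, so the groups overlap widely. Mock sample 1, miR-302a and miR-373, the lowest, were not well above background, so that their signals are not measured levels, and they entered the fit as read. Its fitted change was -0.89 ± 0.82 (adjusted p = 0.61, limma), with a 95% interval of 14.5% to 201% of mock. Leaving out 1 array moved it to -0.21 (without miR-372 sample 10), -0.29 (without mock sample 11) or -1.64 (without mock sample 1), and leaving out set 3 to -0.26. On the miR-520f array PTGS2 was not well above background, at -4.27, and the lowest signal well above background there, -3.94, is level with the mock mean of -3.92, so no fold is given. ICAM1 (an adhesion molecule), SOD2 (the mitochondrial superoxide dismutase) and PLAU (the urokinase protease) had fitted changes of -0.15, -0.17 and -0.02.

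**Figure D2:**
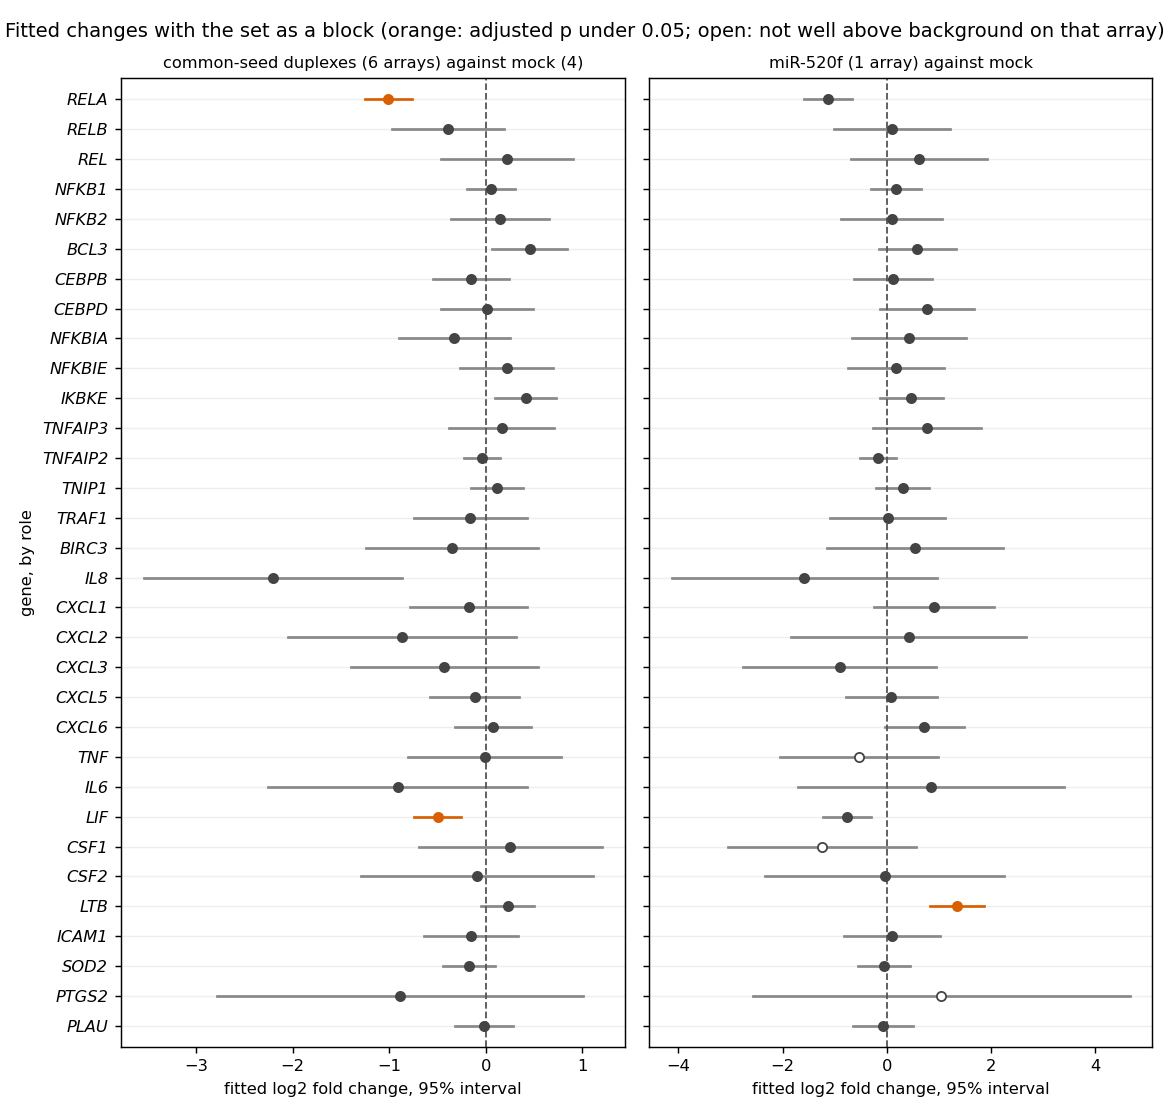
Fitted log2 fold change (horizontal axes) of the 32 genes, grouped by role, for the common-seed duplexes (left) and miR-520f (right) against mock, with 95% intervals from limma; orange marks an adjusted p under 0.05 and open circles genes not well above background on the miR-520f array. RELA and LIF on the left and LTB on the right are in orange, and the intervals are widest for PTGS2, IL6 and IL8.

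Array by array, with a difference of 0.5 or more on the log2 scale from the mock arrays of the set and no test, the duplexes differed in how many of the 32 genes moved. With miR-302a none was higher and 8 were lower, where 4.85% and 8.31% of all probes were. With miR-373 none was higher and 7 were lower, beside 4.54% and 11.8% of all probes. On miR-372 sample 10, 1 was higher and 13 were lower, beside 7.79% and 6.26%. On these 3 arrays more of the 32 genes were lower than higher.

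With dsEcad640, 5 genes were higher and 5 lower, beside 7.89% and 13.4% of all probes. With miR-520c the numbers were 5 and 4, beside 18.2% and 14.8%, and with miR-520f 8 and 6, beside 7.77% and 17.5%. On miR-372 sample 4 they were 8 and 6, beside 27.5% and 4.71%. The counts on the 2 arrays of miR-372 thus differ. Over the 224 pairs of a gene and a duplex array, 27 were higher and 49 lower, and with normexp background correction 13 and 35. These numbers depend on the mock array of set 3. With mock sample 9 alone there they were 42 higher and 41 lower, and with mock sample 11 alone 26 and 58. The pooled share over all probes was not counted.

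**Figure D3:**
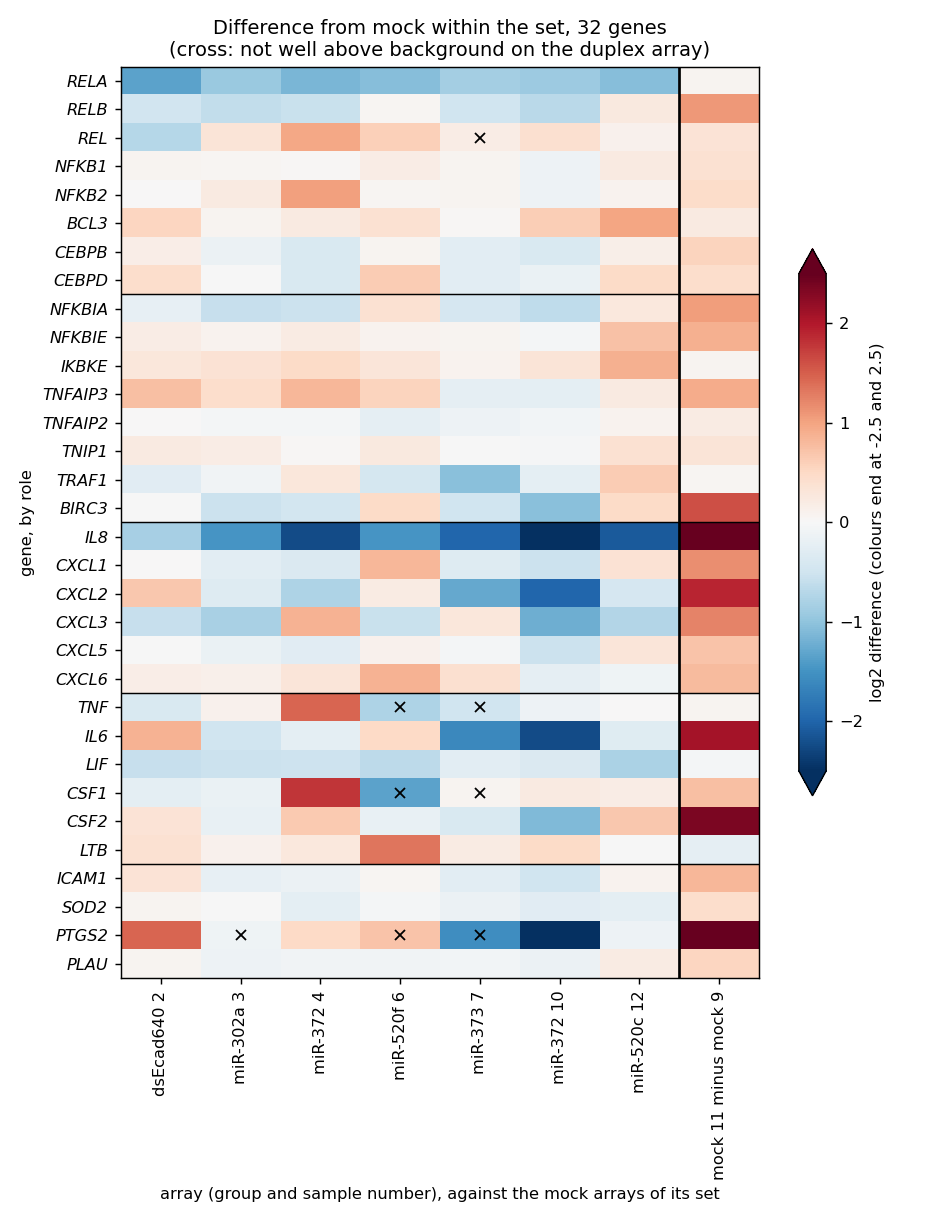
Log2 difference (colour, red higher and blue lower) of the 32 genes (rows, grouped by role) on the 7 duplex arrays from the mean of the mock arrays of their set, and, right of the line, of mock sample 11 from mock sample 9; crosses mark genes not well above background on the duplex array. The row of RELA is blue on all 7 arrays, and the column of the mock pair is red for 30 of 32 genes.

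The mock arrays of set 3, which differ in no labelled condition, differed in these genes mostly in 1 direction. Mock sample 11 was above mock sample 9 by 0.5 or more for 18 of the 32 genes, and by 1 or more for 10, and below it by 0.5 or more for none. Of all probes, 6.36% were higher by 0.5, 1.00% higher by 1 and 8.95% lower by 0.5. The median difference was 0.63 over the 32 genes and 0.01 over all probes, and 30 of the 32 genes were above 0, against 51.3% of all probes. All 32 genes were well above background on both arrays. There is no test, since these are 2 arrays of 1 condition.

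The largest differences were those of PTGS2 (2.68), IL8 (2.52), CSF2 (2.35) and IL6 (2.07), that is 6.42-, 5.72-, 5.09- and 4.21-fold. CCL2, a chemokine for monocytes, was well above background on the 4 arrays of set 3 and on no other, at -6.14 on mock sample 9, -6.52 on miR-372 sample 10, -2.73 on mock sample 11 and -4.31 on miR-520c. Its difference between the mock arrays, 3.40 or 10.6-fold, was larger than that of any of the 32 genes tested. CCL5 was well above background on mock sample 11 and not on mock sample 9, and was at least 2.69-fold higher. CCL20 was on neither.

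All 6 measured chemokine genes were higher on mock sample 11 by 0.5 or more, from 0.71 (CXCL5) to 2.52 (IL8), with a median of 1.20. Of the 8 inhibitor and feedback genes 4 were, among them BIRC3 (1.61), NFKBIA (1.04) and TNFAIP3 (0.93), and of the 8 transcription factor genes 2, RELB (1.09) and CEBPB (0.55). Of the 4 effector genes 3 were, PTGS2, ICAM1 (0.84) and PLAU (0.54). The genes that passed a test had differences of 0.07 (RELA), -0.05 (LIF) and -0.23 (LTB). Genes with a κB match in a promoter (16 measured) had a median difference of 0.75, and 10 of them reached 0.5. Those whose promoters were covered but held no match (11 measured) had 0.44 and 5. The ranges overlap, from -0.23 to 2.07 with a match and from 0.05 to 2.68 without. PTGS2, IL8 and CSF2 had no match to the searched pattern, which does not mean that they lack a κB site. The 2 groups are therefore groups by this pattern only, and a link between these sites and the differences was not tested.

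**Figure D4:**
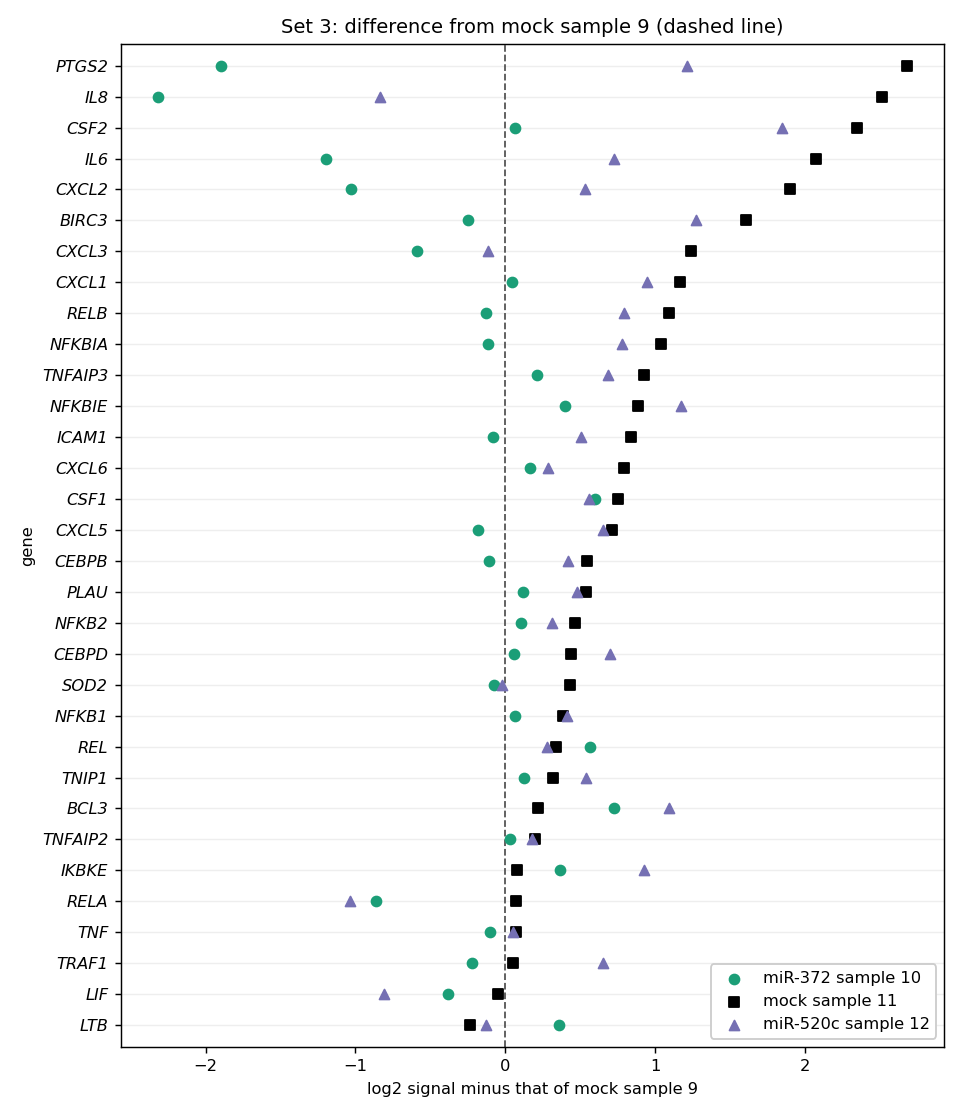
Log2 signal of the 32 genes on the other 3 arrays of set 3 minus that of mock sample 9 (dashed line at 0), with mock sample 11 as black squares, miR-372 sample 10 as green circles and miR-520c as triangles, in the order of mock sample 11. Mock sample 11 lies to the right for 30 of 32 genes, up to 2.68 for PTGS2, and miR-520c by 0.5 or more for 18.

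The duplex arrays of set 3 can be set against each mock array in turn. The array of miR-520c was above mock sample 9 by 0.5 or more for 18 of the 32 genes and below for 3, beside 22.0% and 18.9% of all probes, and above mock sample 11 for 3 and below for 9, beside 16.5% and 12.7%. Sample 10 of miR-372 was above mock sample 9 for 3 and below for 6, beside 8.58% and 7.35%, and above mock sample 11 for 2 and below for 17, beside 10.9% and 8.48%. The median difference over the 32 genes was 0.54 from mock sample 9 and -0.20 from mock sample 11 for miR-520c, and -0.02 and -0.57 for miR-372 sample 10. RELA and LIF were lower on both duplex arrays against either mock array, RELA by 0.86 to 1.11 and LIF by 0.34 to 0.81. The comparisons share the mock arrays and are not independent. What differed between the 2 mock arrays beside these genes was not tested.

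The genes around the list were taken from lists of upstream signalling proteins and of receptors of the ligands. Of 30 upstream genes, 26 were measured, and none passed the test in any of the 3 contrasts. Their fitted changes under the common-seed duplexes ran from -0.39 (TANK, a TRAF-binding adaptor) to 0.31 (IKBKB, the IκB kinase beta) with a median of 0.02, and IRAK4, a kinase of the interleukin-1 receptor pathway, had -0.34. IKBKB had an adjusted p of 0.063 (limma). Between the mock arrays of set 3, 2 of the 26 were higher by 0.5 or more on mock sample 11 and none lower, beside 6.36% and 8.95% of all probes. The number higher is near that share.

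Of 12 receptor genes, 7 were measured, and PLAUR, the receptor of urokinase, was lower under the common-seed duplexes, by 0.36 on the log2 scale (SE 0.08; adjusted p = 0.047, limma). It lay between 1.48 and 1.80 on the mock arrays and between 1.08 and 1.44 on the common-seed arrays. All 7 duplex arrays were below the lowest mock array, as for 2.84% of all probes. They were also below the mock arrays of their set, as for 9.94% of all probes. The call was lost in 13 of 21 alternative settings. IL6R, the interleukin-6 receptor, lay between -0.40 and -0.02 on the mock arrays, between 0.20 and 0.94 on the common-seed arrays and at 1.52 with miR-520f. The groups do not overlap, and the share of all probes for which this holds in this direction was not counted, so it is not read as particular to IL6R. All 6 common-seed arrays were above the mock arrays of their set for IL6R, as for 15.8% of all probes. The fitted changes of IL6R were 0.74 ± 0.18 for the common-seed duplexes (adjusted p = 0.061, limma) and 1.89 ± 0.34 for miR-520f. Neither passed, nor did the difference between them. IL6R passed in 5 of 21 alternative settings for the common-seed duplexes and in 6 of 20 for miR-520f, among them the filter on all 11 arrays (adjusted p = 0.029 and 0.030, limma). IL6ST, of the same receptor list, went the other way, with -0.30 ± 0.10 for the common-seed duplexes and -0.97 ± 0.20 for miR-520f. It did not pass, and was below the mock arrays of the set on all 7 duplex arrays. IL8RA, a receptor of interleukin-8, had 1.08 ± 0.45 under the common-seed duplexes (adjusted p = 0.22, limma). IL8RA was well above background on 8 arrays, 2 of them mock. On mock sample 1 it read -5.15, under the lowest signal well above background on that array, -5.10, so no difference is given for set 1. In sets 2 and 3 it differed from mock by 2.82 with miR-373, 0.24 on miR-372 sample 10 and 0.59 with miR-520c. A further mock array, in set 2 or 3, was not well above background, so these differences are uncertain.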

How the data were processed

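The authors deposited the scanner output of Agilent Feature Extraction 10.5.1.1, in which the processed signal is an intensity after background subtraction per the file headers, and a table of log2 values normalized within each set by a method not given in the sources used here. One array, titled miR-530f, is called miR-520f by its remaining labels and was taken as that. From the scanner values, spots marked as outliers were dropped, the 75th percentile of an array was subtracted from its log2 signals, and spots of 1 probe were averaged. Probes well above background on at least 6 of 11 arrays were kept. One fit with limma 3.58.1 in R 4.3.3 held all 11 arrays, with the set as a block and mock, common-seed and miR-520f as groups, and had 6 residual degrees of freedom. It was checked on simulated data. Figures and sequence counts used Python 3.11.15. Array number limits the precision.

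The genes, lists and tests were chosen with earlier results of these data known. Described in full are genes past an adjusted p of 0.05, those on 1 side of mock on all 6 common-seed arrays with a fitted size of 0.5 or more, the 5 largest under miR-520f and the 3 that differed most between mock samples 9 and 11. IL6, CCL2 and the other examples of a group were picked after their values were seen. The alternatives were no set term, quantile normalization, normexp with an offset of 50, other filters, averaging over probes of 1 gene, the authors' table, miR-520f in the duplex group and each mock and common-seed array left out in turn. Set 3 in 2 blocks or left out was added after seeing the data. Some markers of the cell type are not reported here.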

Additional observations from a re-analysis of the deposited data

Results flagged for a closer look

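Of 64 groups tested, a gene within the 4 mock or the 6 common-seed arrays, 15 had 1 array far from the others, where chance gives about 1 in 20 if all arrays of a group vary alike. The arrays came from 3 slides that differ, and 11 of the 15 were arrays of set 3, so this rate does not describe the design. The share of all probes with such an array was not counted, so the 15 are not read as particular to these genes. Mock sample 11 was the outlying array among the mock arrays for RELB (3.33), NFKB1 (1.14), NFKBIA (4.72), ICAM1 (-0.21), CXCL5 (1.24) and PLAU (7.33), in each case above the other mock arrays. The array of miR-520c was the outlying one among the common-seed arrays, above the others for RELB (3.04), NFKB1 (1.17), BIRC3 (1.76) and CXCL5 (1.18) and below them for LTB (0.76). Sample 4 of miR-372 was above the other common-seed arrays for NFKB2 (-2.04), TNF (-3.56), CSF1 (-2.78) and CXCL3 (-0.85). These genes share their arrays, so the flags are not independent.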

How the results depend on the processing

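No paired analysis was possible because the sample numbers of the labels differ between all groups, so no replicate number pairs the arrays. The slide is a block throughout, and the blocks of 2 arrays within set 3 given here are trial splits that no label states. These splits were added after the data were seen, so a call gained with them is no support for a gene. For the common-seed duplexes, 2 of the 32 genes passed, and 0 did without the set term or without set 3, 1 without a filter on dim probes (RELA), 0 to 2 with 1 array left out (0 without mock sample 1, where 25 of all probes passed), 1 with set 3 in crossed blocks (samples 9 and 12, 10 and 11) and 4 with blocks by label order (RELA, RELB, IL8 and LIF). Over all probes 1100 passed, and between 0 (without set 3) and 2267 (blocks by label order) did in these settings. RELA was between -1.05 and -0.92 in all 21 settings. For miR-520f against mock, 1 gene passed, and 0 did without the set term, without a filter, in crossed blocks or without set 3, 2 with a filter on all 11 arrays or with the authors' table (RELA and LTB), 3 with quantile normalization (CSF1 also) and 0 to 2 with 1 array left out. Over all probes 198 passed, against 0 to 758. For the difference between miR-520f and the common-seed duplexes, 0 passed, and 1 (CSF1) with quantile normalization. The 76 pairs of a gene and an array past 0.5 became 48 with normexp. The 18 genes higher on mock sample 11 were 16 or 17 in the 4 settings tried. Without a filter the median over all probes was 0.11. The causes were not tested. Dim genes such as TNF, CSF1 and PTGS2 are limited by their signal over background, and miR-520f rests on 1 array.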
